A study of Homo sapiens with 6 samples.

Results

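Meiotic and germline genes are expressed in the testis and ovary and are shut in most somatic cells. A list of 34 autosomal genes of this kind, chosen by symbol for their roles in meiosis, the piRNA pathway and germ cell identity, was examined in HCT116 cells with and without LSD1. All 34 were present among the 60240 genes of the count table. The question was whether any of them left the detection floor when LSD1 was lost.

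Gene expression was measured by RNA-seq of polyA RNA in HCT116, a human colorectal carcinoma cell line grown in McCoy's 5A medium. There were 3 libraries from wild-type cells (WT) and 3 libraries from LSD1 knockout cells (LSD1 KO), and the labels name no treatment for either group. LSD1 KO cells were made with CRISPR/Cas9 aimed at the first exon of LSD1, selected briefly with puromycin and expanded as individual clones. The number of clones behind the 3 libraries is not given in the sources used here, and the labels do not say whether the libraries of a group came from separate cultures. The study's methods state in general that experiments had biological replicates, without naming these libraries, so p-values measure the spread between these libraries, which may be technical. The WT cells are not described as having passed through cloning, so LSD1 loss and clonal selection cannot be told apart.

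In germ cells these genes build the machinery that pairs chromosomes, cuts and repairs DNA for recombination, and silences transposons with small piRNAs. In somatic cells many of them have CpG-rich promoters that carry DNA methylation. The PRC1.6 complex, which holds E2F6, MGA, MAX, L3MBTL2 and PCGF6, also binds a subset of these promoters through E2F6 sites and E-boxes and represses them. LSD1, encoded by KDM1A, removes methyl groups from histone H3 lysine 4, a mark of active or poised promoters.

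The knockout was checked first. KDM1A had 6119, 5927 and 6451 counts in WT replicates 1 to 3 and 837, 749 and 734 in LSD1 KO replicates 1 to 3. Every LSD1 KO library was below every WT library, and the mean level of 28.1 CPM ± 1.93 (SD, n = 3) was 12.5% of that in WT. CPM is the count scaled to a library total of 1000000 counts. Total counts ranged from 25379279 to 29186963, so that the floor used here, 3 counts in a library, stood for 0.103 to 0.118 CPM, a limit that covers counting error only.

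Epithelial markers were present in both groups, with EPCAM, KRT8, KRT18, KRT19 and CDH1 at 659 to 44716 counts and VIL1 at 2 to 8. Of the 7 spermatid markers, PRM1, PRM2, TNP1 and TNP2 had 0 counts in all libraries, ODF1 and SPATA18 reached at most 5, and ACRV1 had 8 to 23. The blood markers PTPRC, CD3E and HBB stayed at 0 to 3 counts. Of the 4 mesenchymal markers, COL3A1, DCN and LUM had 0 to 3 counts, while COL1A1 had 540 to 720 counts in WT and 842 to 902 in LSD1 KO. EPCAM had 5060 to 6552 counts in WT and 2105 to 3745 in LSD1 KO. With the replicate number as a block, COL1A1 was called higher (q = 0.0628) and EPCAM lower (q = 0.0788) in edgeR, and EPCAM was also called by DESeq2 without it (q = 0.0516). The other epithelial markers had block log2 fold changes from -0.47 for KRT18 to 0.45 for KRT19, none of them called, and the part of these shifts in the germline results was not tested. Libraries with the same number in both groups moved together. For that reason each comparison is given without and with the replicate number as a block. What made libraries of the same number alike was not tested.

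None of the 34 genes left the floor in LSD1 KO cells. At or under 3 counts in all 3 WT libraries were 20 of them, and 0 of these 20 rose above 3 counts in all 3 LSD1 KO libraries. CTCFL, at 2, 8 and 4 counts in LSD1 KO, was the one that did so when LSD1 KO replicate 1 was left out. The share of all genes that left the floor under that looser rule was not counted. Over the whole table, 47 of 36407 genes at the floor in WT left it with all libraries kept (0.129%). In the other direction, 0 of the 10 genes above the floor in every WT library dropped to it, compared with 54 of 18244 genes (0.296%). In bulk libraries such as these, fewer cells that express a gene and less RNA per cell cannot be told apart.

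Most of the germline genes stayed at the floor in both genotypes. A total of 18 (52.9%) never exceeded 3 counts in any of the 6 libraries, compared with 19.5% of the 18937 autosomal protein-coding genes and 57.5% of all genes in the table, protein-coding or not. These 18 genes together had 0, 4 and 4 counts in the WT libraries and 5, 1 and 7 in the LSD1 KO libraries. Among them, 9 genes had 0 counts throughout: MAEL, TDRD9 and RNF17 of the piRNA pathway, the chromosome axis proteins HORMAD1 and HORMAD2, SPO11, which makes the meiotic DNA breaks, the germ cell RNA-binding protein DAZL, the transcription factor SOHLH2 and the oocyte factor DPPA3. A sum of 0 over the 3 libraries allows up to 0.0365 CPM in WT and 0.0363 CPM in LSD1 KO. Shared sequence was highest for 2 of the 9, since 65.3% of the 31-base stretches of DPPA3 and 43.3% of those of SOHLH2 recur in transcripts of other genes.

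**Figure D1:**
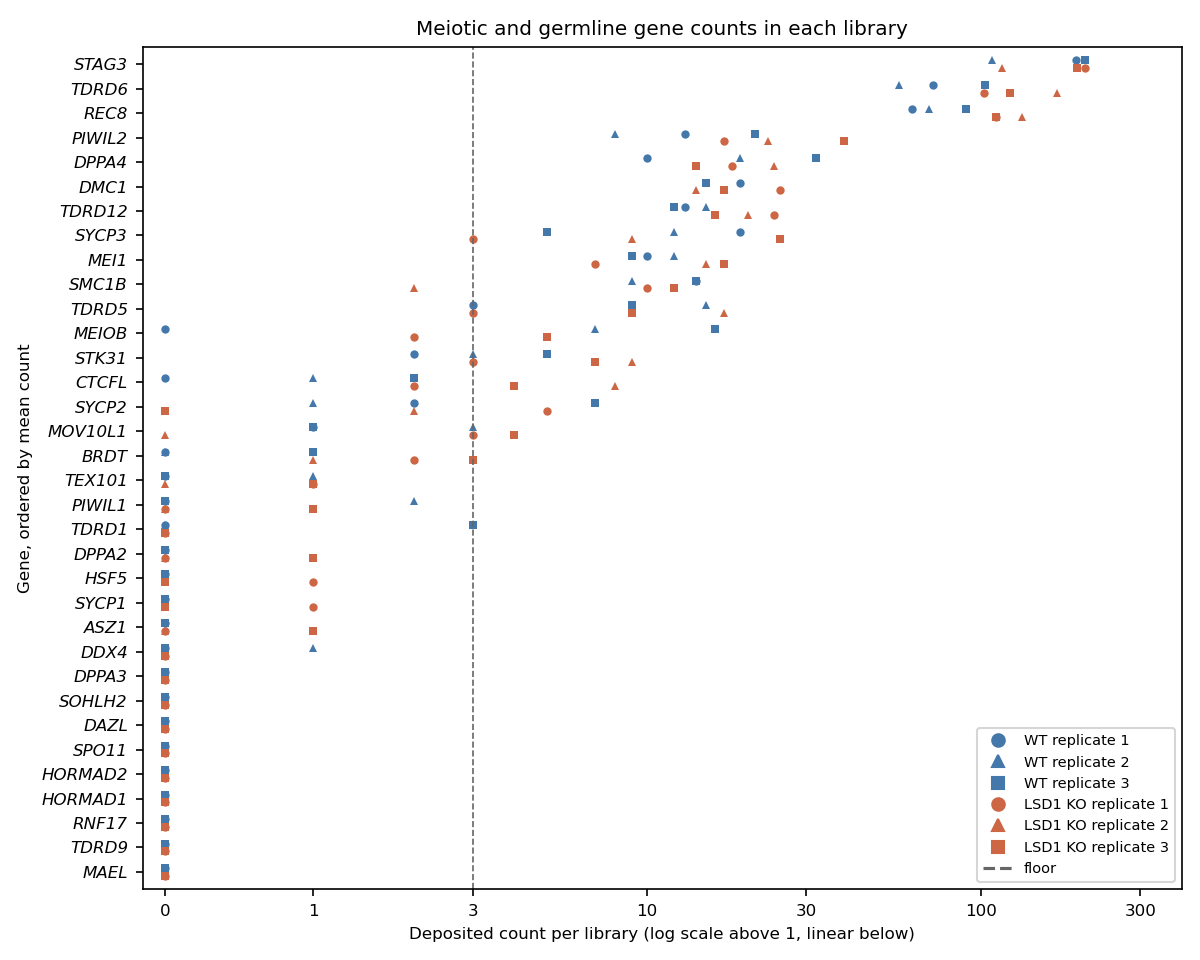
Deposited count of each of the 34 genes in each library, on an axis that is logarithmic above 1 and linear below it, with WT in blue, LSD1 KO in orange and the replicate number given by the symbol. The dashed line marks the floor of 3 counts, below or at which 18 genes stay in all 6 libraries, and no gene has all WT symbols at or left of the line and all LSD1 KO symbols right of it.

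By role, the cohesin genes were detected most often. All 3 meiotic cohesin subunits were above the floor in at least some libraries and 2 of them in all libraries, whereas 0 of the 5 axis and synaptonemal complex genes were above it in all. Of the 13 piRNA and germ granule genes, 3 were above the floor in all libraries, 3 in some, 4 never and 3 had 0 counts. The 4 recombination genes held 2 above the floor in all libraries, and the 8 germline regulators held 1. TEX101, a glycoprotein of the sperm surface, had 0 or 1 count in each library.

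**Figure D2:**
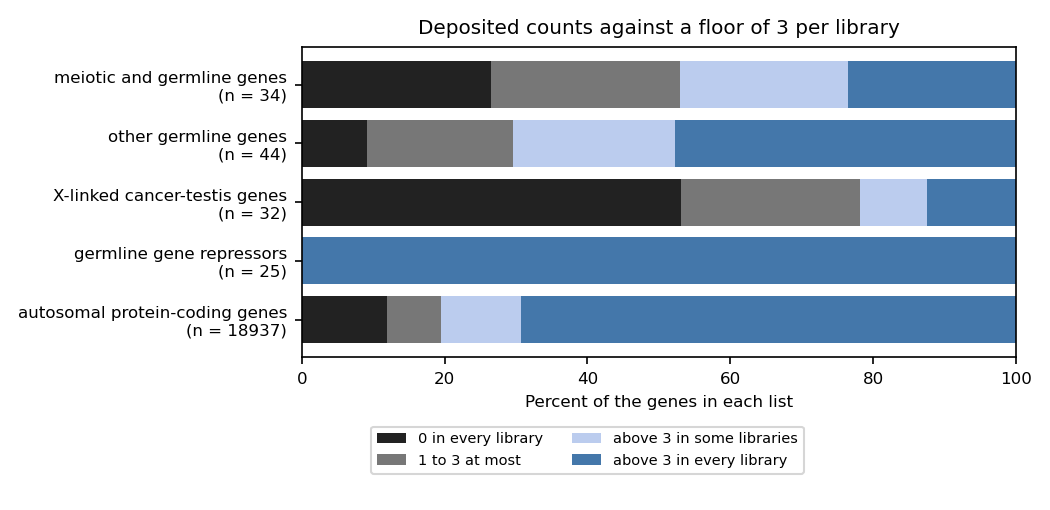
Percent of each gene list whose counts were 0 in every library, never above 3, above 3 in some libraries, or above 3 in every library. Of the meiotic and germline genes 52.9% were never above 3, compared with 29.5% of 44 other germline genes, 78.1% of 32 X-linked cancer-testis genes, 0% of 25 repressors and 19.5% of autosomal protein-coding genes.

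The promoters of these genes were compared next for CpG content and PRC1.6 binding sequences. DNA methylation and PRC1.6 binding at these promoters were not examined here. RefSeq (GRCh38.p14) held promoters for 31 of the 34 genes, with 40 start sites, each taken from 250 bases before the start to 50 after it. HORMAD1, PIWIL2 and MEIOB had no entry. The median ratio of observed to expected CpG was 0.789 in these 40 promoters and 0.579 in all 35116 promoters. A ratio over 0.6 was reached by 31 of the 40 (77.5%), compared with 48.9% of all promoters. Genes with low ratios included DDX4 (0.120), DPPA4 (0.355) and DPPA2 (0.356), and the high end was SMC1B (1.17) and the upstream start of MAEL (1.117).

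**Figure D3:**
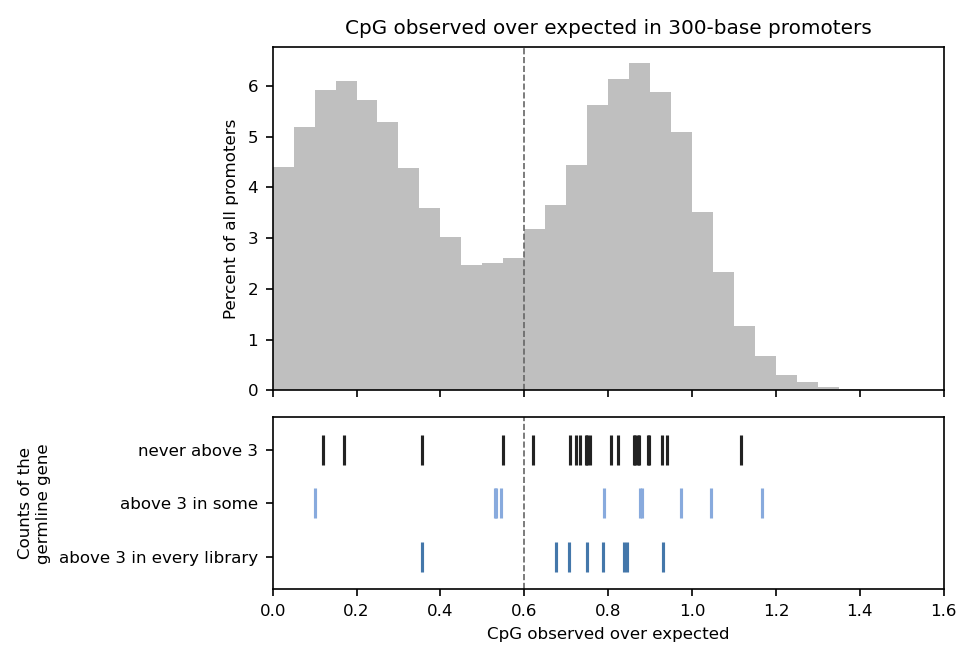
Upper panel, percent of all RefSeq promoters by their ratio of observed to expected CpG in 300 bases. Lower panel, 1 tick for each promoter of the germline genes, split by whether the gene's counts were above 3 in every library, in some or in none; the dashed line marks 0.6, which 77.5% of the germline promoters and 48.9% of all promoters exceed, and ticks of all 3 classes lie on both sides of it.

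The E2F6 site GCGGGAA, searched on both strands and so also as TTCCCGC, was present in promoters of 10 of the 31 genes (32.3%), compared with 7.82% of all 27305 genes with a promoter. The E-box CACGTG, which reads the same on both strands, was present in 9 of the 31 (29.03%), compared with 8.77%. Only STAG3 held both, at 1 of its 2 start sites, and the 2 motifs share no overlapping match. Among promoters with a CpG ratio over 0.6, the E2F6 site was in 10 of 31 germline promoters (32.3%) and in 11.3% of all such promoters, and the E-box in 12 of 31 (38.7%) and in 10.1%. The 12 promoters came from 9 genes, because overlapping starts of TDRD1, STAG3 and BRDT count the same E-boxes again. This raised the germline share more, since over all promoters 2548 with the E-box came from 2396 genes. These matches are descriptions of the letters and do not show that a factor was bound.

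The stretches below were picked with the counts known, to show the bases around each E2F6 match of the germline genes. The matches are alike because a fixed site was searched. Their distances from the start were not compared with those in other promoters. Each is 30 bases on the strand of the gene (RefSeq, GRCh38.p14), with the match in capitals.
TDRD9 (chr14:103928445-103928474, plus strand): cgccgtcgcctgTTCCCGCcgcggagaccc
ASZ1 (chr7:117427537-117427566, minus strand): ccacggcgctccTTCCCGCgcatctctacg
SYCP1 (chr1:114854883-114854912, plus strand): cgctcaggctgagcgatTTCCCGCcttttc
SYCP2 (chr20:59933668-59933697, minus strand): ttggacgggcgcTTCCCGCcttccgccgtt
STAG3 (chr7:100177899-100177928, plus strand): gtgtcttgtacgTTCCCGCgcttttctgga
SMC1B (chr22:45413608-45413637, minus strand): ttggcgaatcccTTCCCGCgctttttccgc
REC8 (chr14:24172053-24172082, plus strand): cgaagcgctcgcTTCCCGCggtgcgatcta
SPO11 (chr20:57329776-57329805, plus strand): cgctcagaaagcGCGGGAAaggcacgcagc
MEI1 (chr22:41699487-41699516, plus strand): cgtgcagtctgcGCGGGAAagagtgccgcc
HSF5 (chr17:58488441-58488470, minus strand): ccacgccgcgtgGCGGGAActcgaggcccc

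The first base of the match lay within 61 bases before the start in 8 of the 10 genes and after it in TDRD9 and SYCP1, by 2 and 38 bases. The counts of these 10 genes covered the whole range. STAG3, REC8 and MEI1 were above the floor in all libraries, SYCP2 and SMC1B in some, and TDRD9, ASZ1, SYCP1, SPO11 and HSF5 in none. The E-box genes were also mixed, since TDRD12 and STAG3 were above the floor in all libraries, TDRD5 and STK31 in some, and MAEL, TDRD1, DAZL, BRDT and SOHLH2 in none.

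STAG3, TDRD6 and REC8 had the most counts of the 34 genes, and TDRD6 and REC8 had the 2 largest fitted changes among the tested genes after PIWIL2, which had the largest and for which no promoter is shown. The 250 bases before their first listed start are given here, on GRCh38.p14, with an E2F6 match in capitals.
STAG3 (chr7:100177474-100177723, plus strand): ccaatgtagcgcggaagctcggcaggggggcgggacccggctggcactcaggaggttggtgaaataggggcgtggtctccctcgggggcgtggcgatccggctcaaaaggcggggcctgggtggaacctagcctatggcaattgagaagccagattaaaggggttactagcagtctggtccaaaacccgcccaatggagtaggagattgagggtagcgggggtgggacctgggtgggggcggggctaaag
TDRD6 (chr6:46687635-46687884, plus strand): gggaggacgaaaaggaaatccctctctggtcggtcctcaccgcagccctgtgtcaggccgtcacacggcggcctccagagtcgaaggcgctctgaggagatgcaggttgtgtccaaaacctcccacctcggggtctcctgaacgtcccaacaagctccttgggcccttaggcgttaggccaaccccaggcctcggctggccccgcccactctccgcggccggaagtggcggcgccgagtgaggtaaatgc
REC8 (chr14:24171830-24172079, plus strand): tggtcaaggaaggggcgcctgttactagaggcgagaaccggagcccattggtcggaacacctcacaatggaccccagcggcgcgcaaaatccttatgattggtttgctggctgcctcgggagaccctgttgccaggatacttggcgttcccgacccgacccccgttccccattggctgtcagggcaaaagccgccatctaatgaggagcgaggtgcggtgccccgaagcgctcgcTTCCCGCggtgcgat

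The REC8 stretch holds its E2F6 match near its end, while those of TDRD6 and of the first STAG3 start hold none. The listed TDRD6 start lies inside the gene, which begins at chr6:46680268. The second STAG3 start, further along the gene, carries the match listed among the 30-base stretches. The promoters of these 3 genes had CpG ratios of 0.676 to 0.932, and the genes had 57 to 205 counts per library.

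Of the 34 genes, 10 passed edgeR's count filter (TDRD6, TDRD12, PIWIL2, SYCP3, STAG3, SMC1B, REC8, DMC1, MEI1 and DPPA4). All 10 were above the floor in every WT library, but the filter asks for more counts than the floor does. PIWIL2 had 13, 8 and 21 counts in WT and 17, 23 and 39 in LSD1 KO. It passed only with its LSD1 KO libraries, because the WT library with 8 counts fell short of the filter. The same held for MEI1, SYCP3 and SMC1B, whose lowest WT counts were 9, 5 and 9. When edgeR's quasi-likelihood p was adjusted by Benjamini-Hochberg over 17672 genes, 0 of the 10 had a q value under 0.1. The background was 0.00566%, since KDM1A was the only gene called. With the replicate block 0 of the 10 were called, beside 1.6% of all genes. DESeq2 called 0 of the 17 germline genes to which it gave a q value (0.37% of all genes), and 0 of 3 with the block (3.96%).

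At an unadjusted p under 0.05, 2 of the 10 genes passed in edgeR, REC8 and TDRD6, beside 3.12% of all genes. The same 2 genes passed with the block, beside 13.4%. Both were higher in LSD1 KO. When the block was combined with testing every gene with a count, REC8 (q = 0.0896) and TDRD6 (q = 0.0354, edgeR) were called, 2 of 25 germline genes beside 3.8% of all genes, so their call turned on the count filter and the block.

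REC8, the meiosis-specific kleisin subunit of cohesin, had 62, 70 and 90 counts in WT replicates 1 to 3 and 111, 133 and 111 in LSD1 KO. All 3 LSD1 KO libraries were higher than all WT libraries. The level was 2.69 CPM ± 0.347 (SD, n = 3) in WT and 4.30 CPM ± 0.333 (SD, n = 3) in LSD1 KO. The log2 fold change was 0.71 ± 0.27 (SE), or 1.64-fold with a 95% interval of 1.07 to 2.50 (edgeR q = 0.9995). With the block the value was 0.71 ± 0.21 and q = 0.203, and with the block and without replicate 2 it was 0.61 with q = 0.2625 (edgeR). The exact permutation test gave p = 0.1, the smallest that 3 libraries against 3 allow. REC8 (chr14:24172080-24180923, GRCh38.p14) overlaps exons of the antisense gene IPO4, which had 1853 to 2828 counts, but only 0.218% of its 31-base stretches are shared.

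TDRD6, a large Tudor-domain protein of the chromatoid body of spermatids, had 72, 57 and 103 counts in WT replicates 1 to 3 and 102, 169 and 122 in LSD1 KO. In CPM the groups did not overlap, at 2.06 to 3.53 in WT and 3.66 to 5.90 in LSD1 KO, although WT replicate 3 and LSD1 KO replicate 1 had nearly the same raw count. The log2 fold change was 0.80 ± 0.32 (SE), or 1.75-fold with a 95% interval of 1.05 to 2.89 (edgeR q = 0.9995). Much of the difference lay in replicate 2, where the log2 difference was 1.52, against 0.37 and 0.41 in the other pairs. With the block the log2 fold change was 0.79 ± 0.27 with q = 0.266, and with the block and without replicate 2 it was 0.41 with q = 0.516 (edgeR). TDRD6 (chr6:46680268-46704319) overlaps TDRD6-AS1 and PLA2G7 on the other strand. PLA2G7 had 122 to 138 counts in 5 libraries and 222 in LSD1 KO replicate 2, the library in which TDRD6 was also highest. Shared sequence came to 3.22%, and the part of PLA2G7 in the TDRD6 counts was not tested.

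PIWIL2 and TDRD12 were also higher in LSD1 KO in every same-numbered pair but less certainly. PIWIL2, a Piwi protein that binds piRNAs, had 13, 8 and 21 counts in WT replicates 1 to 3 and 17, 23 and 39 in LSD1 KO. The groups overlapped, with LSD1 KO replicate 1 below WT replicate 3. Its log2 fold change was 0.96 ± 0.51 (SE), with a 95% interval from -0.21 to 2.14 (edgeR q = 0.9995), and 0.95 ± 0.43 with the block (q = 0.3904). TDRD12, a Tudor protein with a helicase-like domain needed for secondary piRNAs, had 13, 15 and 12 counts in WT and 24, 20 and 16 in LSD1 KO. Its libraries did not overlap, but the log2 fold change of 0.59 ± 0.42 (SE) had a 95% interval from -0.37 to 1.56 (edgeR q = 0.9995, 0.597 with the block).

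**Figure D4:**
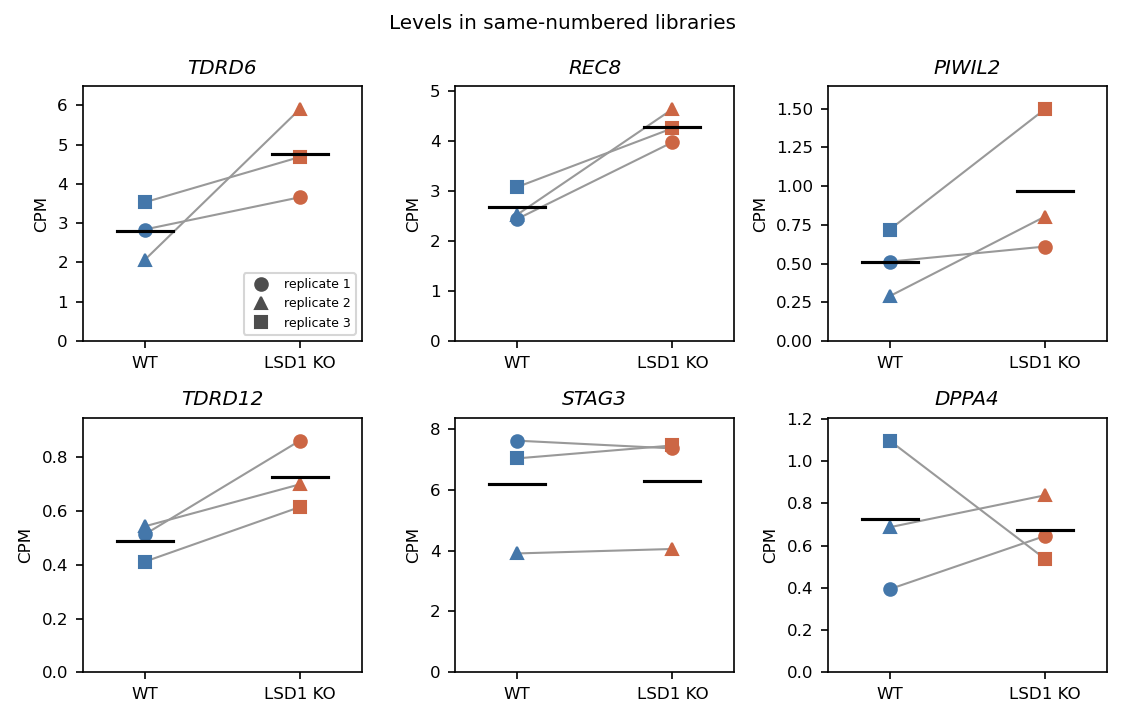
CPM of 6 genes in the WT and LSD1 KO libraries, with grey lines joining libraries of the same number and black bars at the group means (n = 3). TDRD6, REC8, PIWIL2 and TDRD12 are higher in LSD1 KO on all 3 lines; the STAG3 lines are nearly flat, with replicate 2 lower in both groups, and the DPPA4 lines cross.

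In CPM, 3 of the 10 genes (TDRD6, TDRD12 and REC8) had every LSD1 KO library above every WT library, beside 3.29% of all genes tested, and 0 of 10 had every LSD1 KO library below, beside 4.43%. A higher value in LSD1 KO in 3 of 3 pairs was found for 4 of the 10, beside 15.3%. The median log2 fold change of the 10 was 0.28 and 8 of them were positive, while over all genes tested the median was 0.00082 and 50.1% were positive. These are counts over few genes that do not stand as a test of the list. The counts of 4 and of 8 include PIWIL2, and the count of 8 also includes MEI1 and SYCP3. The median includes these genes and SMC1B. Each of them passed the filter only with its LSD1 KO libraries.

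STAG3, the meiotic counterpart of the STAG1 and STAG2 cohesin subunits, was the most highly expressed of the 34 per length in WT, at 1.47 CPM per kb of transcript, followed by REC8 at 1.18. In LSD1 KO the order of these means was the reverse, 1.496 for STAG3 and 1.89 for REC8. STAG3 had 193, 108 and 205 counts in WT replicates 1 to 3 and 205, 116 and 194 in LSD1 KO. The low library was replicate 2 in both groups, and the groups overlapped. The log2 fold change was 0.06 ± 0.32 (SE), and the block narrowed the 95% interval from -0.68 to 0.80 down to -0.32 to 0.44 (edgeR q = 0.911 with the block). Of its 31-base stretches 34.6% recur in other transcripts, among them those of CASTOR3P on the other strand, which had 166 to 233 counts, so the level of STAG3 is uncertain. SMC1B, the meiotic SMC1 subunit, had 14, 9 and 14 counts in WT and 10, 2 and 12 in LSD1 KO. It was lower in all 3 pairs, and its log2 fold change of -0.59 ± 0.65 (SE) had a 95% interval that reached from -2.06 to 0.89 (edgeR q = 0.9995, 0.660 with the block).

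The recombination genes had low counts, and their intervals were wide. DMC1, the meiotic recombinase, had 19, 15 and 15 counts in WT and 25, 14 and 17 in LSD1 KO. MEI1, needed for meiotic break formation, had 10, 12 and 9 in WT and 7, 15 and 17 in LSD1 KO. Both pairs of groups overlapped, with log2 fold changes of 0.21 ± 0.43 for DMC1 and 0.35 ± 0.53 for MEI1 (SE, edgeR q = 0.9995 for both). The 95% intervals reached from -0.78 to 1.20 and from -0.85 to 1.56. MEIOB, a single-stranded DNA-binding partner of recombination, had 0, 7 and 16 counts in WT and 2, 5 and 5 in LSD1 KO and did not pass the filter. The ratio of its summed counts was 0.520, with a counting interval of 0.236 to 1.09. It shares 74.3% of its 31-base stretches with another annotated gene, so its counts are uncertain. Exons of FAHD1, which had 433 to 838 counts, overlap MEIOB on the other strand. The part of FAHD1 in the MEIOB counts was not tested.

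The synaptonemal complex genes varied widely between libraries. SYCP3, which forms the lateral elements with SYCP2, had 19, 12 and 5 counts in WT and 3, 9 and 25 in LSD1 KO. It was lower in LSD1 KO in 2 pairs and higher in the third, and its log2 fold change changed sign between the fits, 0.05 ± 0.81 without the block and -0.09 ± 0.87 with it (SE, edgeR). The antisense gene CHPT1 shares 13.6% of the 31-base stretches of SYCP3. SYCP2 had 2, 1 and 7 counts in WT and 5, 2 and 0 in LSD1 KO, and SYCP1, the transverse filament, had a single count in LSD1 KO replicate 1.

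**Figure D5:**
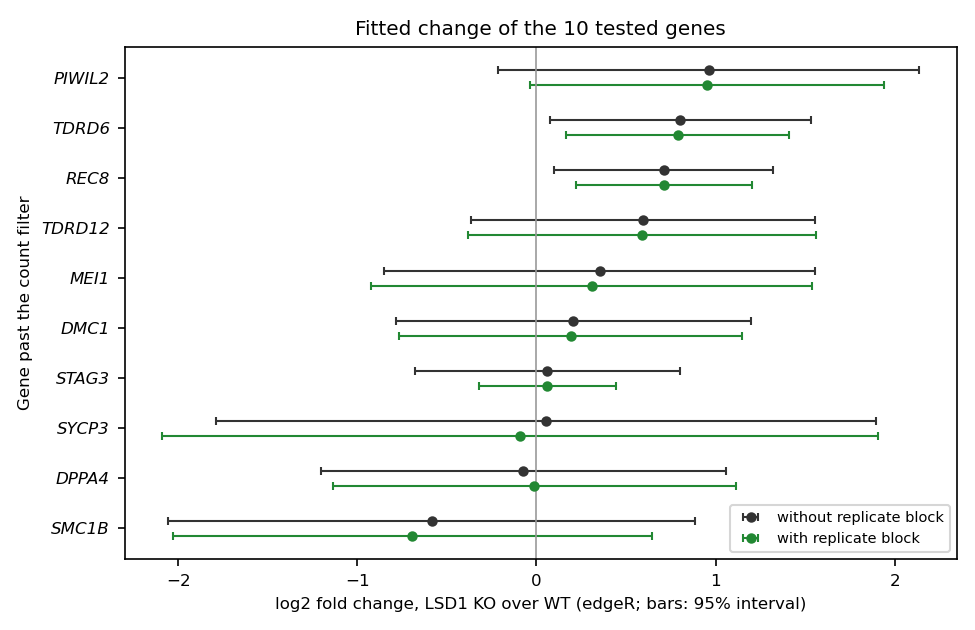
Log2 fold change of LSD1 KO over WT for the 10 genes past the count filter, with 95% intervals, from edgeR without the replicate block (black) and with it (green). Only the intervals of TDRD6 and REC8 lie to the right of 0, from 0.08 and 0.10 without the block, and their q values were 0.9995 without it and 0.266 and 0.203 with it.

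Of the germline regulators only DPPA4, a chromatin protein of early embryo and germ cells that pairs with DPPA2, passed edgeR's count filter. It had 10, 19 and 32 counts in WT and 18, 24 and 14 in LSD1 KO, with overlapping groups and a log2 fold change of -0.07 ± 0.50 (SE, edgeR q = 0.9995, 0.994 with the block). Its partner DPPA2 had 1 count in LSD1 KO replicate 3 and 0 in the other libraries. CTCFL, the testis paralog of CTCF also called BORIS, came nearest to leaving the floor. It had 0, 1 and 2 counts in WT and 2, 8 and 4 in LSD1 KO. The groups did not overlap in CPM (0.0685 in WT replicate 3, 0.0717 in LSD1 KO replicate 1), but these 2 libraries had the same raw count of 2. Replicate 1 of LSD1 KO stayed under the floor. How often other genes with so few counts showed no overlap was not counted. The ratio of the summed counts, 14 to 3, was 4.65 with a counting interval of 1.30 to 25.2, which covers counting error only. CTCFL did not pass edgeR's filter, and across libraries its log2 fold change was 2.29 ± 1.63 (SE) in DESeq2 (q = 0.99998), and q was 0.937 in edgeR with the block and no filter. BRDT, the testis bromodomain protein, had 0, 0 and 1 counts in WT and 2, 1 and 3 in LSD1 KO, a ratio of 5.97 with a counting interval of 0.725 to 275 (DESeq2 q = 0.99998). HSF5, a heat shock factor of spermatogenesis, had 1 count in all.

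The remaining piRNA and germ granule genes were at or near the floor. TDRD5 had 3, 15 and 9 counts in WT and 3, 17 and 9 in LSD1 KO, with libraries of the same number alike in both groups. STK31, a Tudor protein with a kinase-like domain, had 2, 3 and 5 counts in WT and 3, 9 and 7 in LSD1 KO, with a ratio of 1.89 and a counting interval of 0.837 to 4.56. MOV10L1, the helicase that feeds piRNA precursors into processing, had 1, 3 and 1 in WT and 3, 0 and 4 in LSD1 KO. The germ cell helicase DDX4, TDRD1, the Piwi protein PIWIL1 and the mitochondrial scaffold protein ASZ1 reached at most 3 counts in any library.

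A list of other germline genes, chosen for comparison, also gave no call. Of 44 genes, 23 were tested and 0 were called by edgeR without or with the block, and 0 by DESeq2 in either form. At an unadjusted p under 0.05 in edgeR were 1 and 5 of the 23, beside 3.12% and 13.4% of all genes. None left the floor. Several were well expressed in both groups, such as GTSF1, a piRNA pathway zinc finger protein with 2080 to 3196 counts, and GPAT2, a piRNA-linked acyltransferase with 1175 to 1949. MEIOSIN, which switches on meiotic genes with STRA8, had 80, 83 and 58 counts in WT and 317, 15 and 140 in LSD1 KO. Its LSD1 KO libraries lay on both sides of WT. With all libraries and the block its log2 fold change was 0.63 ± 0.71 (SE, edgeR q = 0.756). Leaving out replicate 2, the pair that went the other way, gave a call (1.68 ± 0.23, SE, q = 3.79e-05 in edgeR with the block). That setting was chosen after seeing the data and called 1055 genes over the whole table. GTSF1, GPAT2 and MEIOSIN were picked with their values known.

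X-linked cancer-testis genes, which are also held shut by promoter methylation in most somatic cells, were at the floor in most cases. Of 32 with a row in the table, 25 never exceeded 3 counts and 0 left the floor. The 4 tested were MAGEA3, MAGEA6, MAGEB2 and TAF7L, and 0 were called by edgeR or DESeq2 without or with the block. At an unadjusted p under 0.05 in edgeR were 0 and 1 of the 4, beside 3.12% and 13.4% of all genes. MAGEB2 had 3281 to 4692 counts and MAGEA3 1647 to 2746, so this family was not uniformly off in WT. MAGEA genes share sequence with each other and their separate counts are uncertain.

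All 25 genes on a list of germline gene repressors were above the floor in every library. By edgeR without or with the block 0 were called, and 0 by DESeq2. At an unadjusted p under 0.05 in edgeR were 1 and 4 of the 25, beside 3.12% and 13.4% of all genes. E2F6, the DNA-binding subunit of PRC1.6, had 969 to 1036 counts in WT and 920 to 1176 in LSD1 KO, a log2 fold change of 0.10 ± 0.16 (SE, edgeR). MGA, its E-box scaffold, had 1233 and 1226 counts in replicate 2 of WT and LSD1 KO and 2117 to 2596 in the other libraries, with a log2 fold change of -0.10 ± 0.32. L3MBTL2 changed by -0.33 ± 0.17 and PCGF6 by -0.23 ± 0.21 on the log2 scale (SE, edgeR q = 0.9995, and 0.206 and 0.486 with the block).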

How the data were processed

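Per the study's methods and the submitters' processing notes, the authors checked the read pairs with FastQC, trimmed them with Trimmomatic 0.39 and quantified them against GENCODE transcripts (GRCh38) with Salmon 1.4.0. The authors deposited expected counts per gene as whole numbers, not scaled for depth. The step from transcripts to genes and the use of strand are not given in the sources used here. Symbols were matched for 58395 of 60240 genes.

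The 34 genes and the comparison lists were chosen with earlier results of these data known. Counts were compared with edgeR 4.0.16 in R 4.3.3 (TMM, filterByExpr by group, quasi-likelihood test, Benjamini-Hochberg, q value under 0.1). DESeq2 1.42.0 was an alternative, with its own filter. Same-numbered libraries deviated together from their group means (r = 0.377, 0.509 and 0.512 over 17672 genes, against -0.463 to 0.0159 for different numbers). Deviations from a group mean cancel out within the group, so positive values for the same number push the others negative. The replicate number was therefore also held as a block, which lowered the common biological coefficient of variation from 0.279 to 0.133. CPM was computed on the total count. Ratios of summed counts have 95% exact binomial intervals, which cover counting error only. Single genes were compared by a two-sided exact permutation test on log2(CPM + 0.5).

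Per-library counts were given for genes with more than 3 counts in at least 1 library, fit statistics for those past the filter, and ranges for the rest. From the other lists, genes with a q value under 0.1, E2F6, MGA, L3MBTL2 and PCGF6 were to be named. Promoters were shown for the 3 genes with the most counts and the 2 with the largest changes outside chromosome 8. Promoters and gene positions came from RefSeq (GRCh38.p14), and shared 31-base stretches were counted on both strands of GENCODE v44lift37 transcripts. The alternatives were other size factors, no filter, the block, DESeq2, a q value under 0.05, other floors and leaving out libraries. The fits were also run on simulated data, in which the changed genes had more counts than most of the tested germline genes. That run does not show how the fits behave at low counts.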

Additional observations from a re-analysis of the deposited data

How the results depend on the processing

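The alternatives moved the number of genes called over the whole table far more than the result for the 34 germline genes. Against 1 gene called in the main comparison, 114 were called with no count filter, 282 with the replicate block, 1285 with both, 95 with DESeq2 and 593 with DESeq2 and the block. Leaving out libraries gave 1 to 26, the highest without LSD1 KO replicate 2, and 22 without replicate 2 of both groups. The block without replicate 2, an alternative chosen after seeing the data, gave 1055. Among the germline genes 2 were called with the block and no filter (REC8 and TDRD6) and 0 under every other alternative. For the other germline genes the number called was 3 with the block and no filter (DND1 and PLD6 lower, TEX19 higher) and 2 with the block and without replicate 2 (MEIOSIN and TEX19 higher). For the repressors it was 2 with the block and no filter (KDM5B higher, UHRF1 lower). The number of germline genes leaving the floor was 0 to 1 when libraries were left out, the 1 being CTCFL without LSD1 KO replicate 1. No share over all genes was counted for that setting. The number was 0 with a floor of 1 or 10 counts and with scaled counts. No gene dropped to the floor under any alternative.

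Of 140 alternative values of the log2 fold changes of the 10 tested genes, 126 kept their direction and their side of the threshold, 2 passed it and 12 reversed. SYCP3 was -0.092 with the replicate block, -0.12 with the block and no filter and -0.23 with DESeq2 and the block, and -0.998 to 0.57 when libraries were left out. DPPA4 was 0.010 with DESeq2 and the block and -0.38 to 0.32 when libraries were left out. STAG3 ranged from -0.17 to 0.26 and DMC1 from -0.034 to 0.36 when libraries were left out. The causes were not tested. The block alone changed the call of none of the 10 genes. Below about 3 counts per library a change could not be read at this depth.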
